A study of Sus scrofa with 6 samples.

Results

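Cyclins, cyclin-dependent kinases and their inhibitors, the MCM replication helicase and a set of mitotic genes were followed in back muscle (longissimus dorsi) from 6 boars, all 150 days old. The animals were 3 Northeastern Indigenous boars and 3 Large White boars, the control breed, kept under like feeding and housing per the labels, and RNA from whole frozen tissue of each animal was read on its own Affymetrix porcine array. The genes were taken by symbol: every probe set with a single platform symbol beginning with CCNA, CCNB, CCND, CCNE, CCNG to CCNL, CDK, MCM and a digit, or BUB, or equal to TOP2A, PCNA, MKI67, CDC2, CDC20 or AURKA. This gave 57 probe sets of 41 genes, out of 10069 probe sets of 6765 genes with a single symbol. MKI67, CDC2, BUB1 and the cyclin E genes were not among the 41. A gene with several probe sets is represented by the brightest on average.

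Cyclins switch on their partner kinases at set stages of the cell cycle. D-type cyclins act early, CDK2 and the MCM helicase act around DNA replication, and cyclins A and B drive entry into mitosis. CDK inhibitors hold the kinases back. Muscle fibres are built from nuclei that have left the cell cycle, so dividing cells in adult muscle are mainly satellite cells, immune cells, vessel cells, fibroblasts and precursors of fat cells. Several genes with cyclin or CDK names act in transcription, splicing or RNA modification instead.

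Values are log2 intensities after quantile normalization, and differences are Northeastern Indigenous minus Large White. The 18 sarcomere markers on the array lay above the array median on all 6 arrays. They were nevertheless dim on 1 array: the desmin gene DES read 13.09, 12.91 and 13.63 on Northeastern Indigenous replicates 1, 2 and 3, against 7.26, 13.23 and 11.59 on Large White replicates 1, 2 and 3. The fat-cell hormone gene ADIPOQ read 7.11, 8.29 and 6.73 on the Northeastern Indigenous arrays, against 13.64, 7.22 and 12.50 on the Large White arrays. Large White replicates 1 and 3 thus stood apart from the other 4 arrays before any cell cycle gene was considered, and main results below are also given against Large White replicate 2 by itself. The ratio of the 3′ to the 5′ actin control probe set, a sign of RNA quality, was 10.85, 6.69 and 10.28 on the Northeastern Indigenous arrays, against 5.85, 9.72 and 5.56 on the Large White arrays, so it too was low on Large White replicates 1 and 3; its part in the results was not tested. The ratio of the 3′ to the 5′ GAPDH control probe set ran from 1.27 to 1.39 on Northeastern Indigenous and from 1.25 to 1.31 on Large White arrays.

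No cell cycle gene passed the test between breeds. After the filter on dim probe sets, which kept 35 of the 41 genes, limma called 0 of them at a Benjamini-Hochberg adjusted p under 0.05, where 0.0% of all 14399 probe sets kept were called. The smallest adjusted p among them was 0.224. At an unadjusted p under 0.05 there were 4 higher and 4 lower in Northeastern Indigenous boars, each 11.4% of the 35, against 9.42% higher and 11.4% lower of the 5438 named genes kept. Of all probe sets kept, 18.8% had such a p. The 4 lower genes include TOP2A and MCM3, which passed the filter through the Large White arrays, so the filter helped to select that count. The breeds did not overlap in 11 of the 41 genes, 26.8%, against 25.9% of all 6765 named genes and 28.3% of those kept (15.9% higher, 12.4% lower). Out of the 41 genes, 4 were higher without overlap, where 14.3% of all 6765 named genes were. Another 7 of the 41 were lower without overlap, where 11.6% of all 6765 were. The total share and the shares by p were near the background. The median difference over the 41 genes was 0.05 log2 units, against 0.06 over all named genes, and was -0.10 over the 35 genes kept when the arrays were not quantile normalized.

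Individual roles departed from that middle in opposite directions. All 3 mitotic cyclins and 3 of 4 mitotic genes had lower means in Northeastern Indigenous boars, most of the CDK inhibitors had higher means, and the replication genes were mixed. The map of all 41 genes by array shows this order by role.

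**Figure D1:**
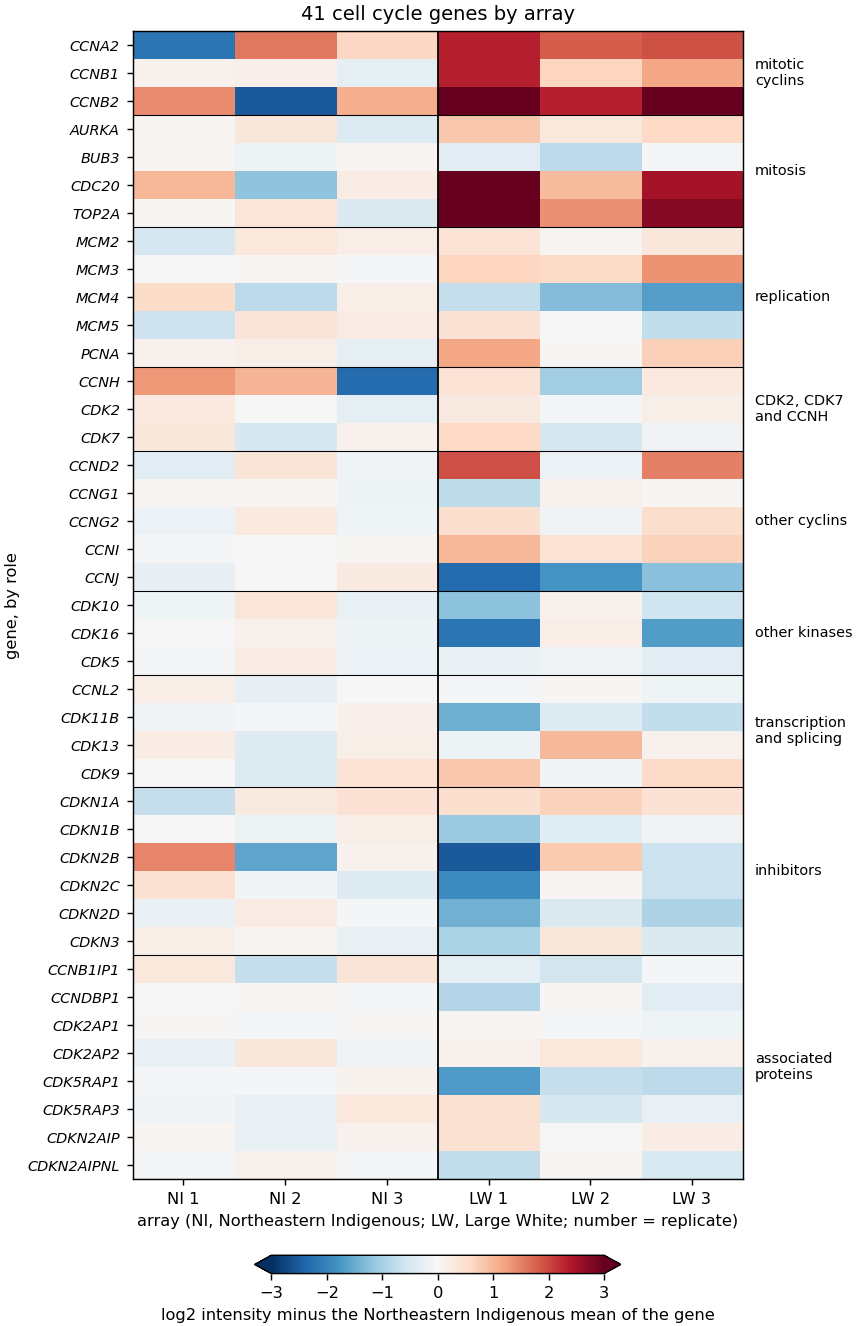
Each row is 1 of the 41 genes, ordered by role, and each column 1 array (NI, Northeastern Indigenous; LW, Large White). Colour gives the log2 intensity minus the Northeastern Indigenous mean of that gene, red above and blue below, and saturates at 3 units. The mitotic cyclins, CDC20 and TOP2A are red on the Large White arrays, CCNJ is blue on all 3, and Large White replicate 2 is pale in most rows.

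The mitotic cyclins were dimmer in Northeastern Indigenous boars and did not overlap between breeds in 3 of 3 genes, where 11.6% of all named genes were lower without overlap. Of the 3, CCNA2 and CCNB2 lay below the filter. CCNB1, cyclin B1, the partner of CDK1 at entry into mitosis, read 6.25, 6.26 and 5.83 on the Northeastern Indigenous arrays and 8.44, 6.75 and 7.27 on the Large White arrays. Its difference was -1.37 ± 0.47 (SE), or 2.59-fold more in Large White boars, with a limma adjusted p of 0.232, and was -0.64 against Large White replicate 2 alone. CCNB2, its close relative cyclin B2, read 4.79, 0.85 and 4.45 on the Northeastern Indigenous arrays, against 6.99, 5.70 and 6.63 on the Large White arrays. CCNA2, cyclin A2, which serves S phase and early mitosis, read 1.15, 4.91 and 3.94 on the Northeastern Indigenous arrays and 5.66, 5.14 and 5.24 on the Large White arrays. The wide spread of CCNB2 and CCNA2 among Northeastern Indigenous boars is a spread of dim signals. Large White replicate 2 lay above all Northeastern Indigenous arrays for each of the 3 cyclins.

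TOP2A, the topoisomerase that untangles chromosomes in dividing cells, was dimmer in Northeastern Indigenous boars. It read 5.23, 5.53 and 4.74 on the Northeastern Indigenous arrays, against 8.83, 6.55 and 7.89 on the Large White arrays. Every Large White array was brighter than every Northeastern Indigenous array, and Large White replicate 1 was the brightest. The difference was -2.59 ± 0.59 (SE), 6.02-fold more in Large White boars, with a limma adjusted p of 0.224. Against Large White replicate 2 alone it was -1.38. TOP2A, AURKA and MCM3 are the 3 genes kept whose Northeastern Indigenous mean was under the filter value of 5.85, so they passed the filter through the Large White arrays. Their values, counts and p-values are descriptions that the filter helped to select.

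The other mitotic genes were less clear-cut. CDC20, which activates the anaphase-promoting complex, read 3.85, 1.66 and 3.08 on the Northeastern Indigenous arrays and 6.51, 3.81 and 5.36 on the Large White arrays, and lay under the array median on all 6. AURKA, the Aurora A kinase of the spindle poles, read 5.82, 6.09 and 5.35 on the Northeastern Indigenous arrays and 6.56, 6.07 and 6.35 on the Large White arrays. Both genes overlapped between breeds through Large White replicate 2. BUB3, a subunit of the spindle checkpoint, went the other way at 0.39 ± 0.27 (SE), with 11.33, 11.12 and 11.36 on the Northeastern Indigenous arrays against 10.95, 10.48 and 11.20 on the Large White arrays. Of the 7 genes of the mitotic cyclins and mitosis together, 6 had a lower mean in Northeastern Indigenous boars, and Large White replicate 1 was the brightest array for the same 6. CCNB1, TOP2A and AURKA stayed lower under all 4 other scalings tried. CCNA2, CCNB2 and CDC20, below the filter, were rescaled only to the deposited values, at -1.97, -3.10 and -2.36. BUB3 came to -0.02 when arrays were centred on their hybridization controls.

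**Figure D2:**
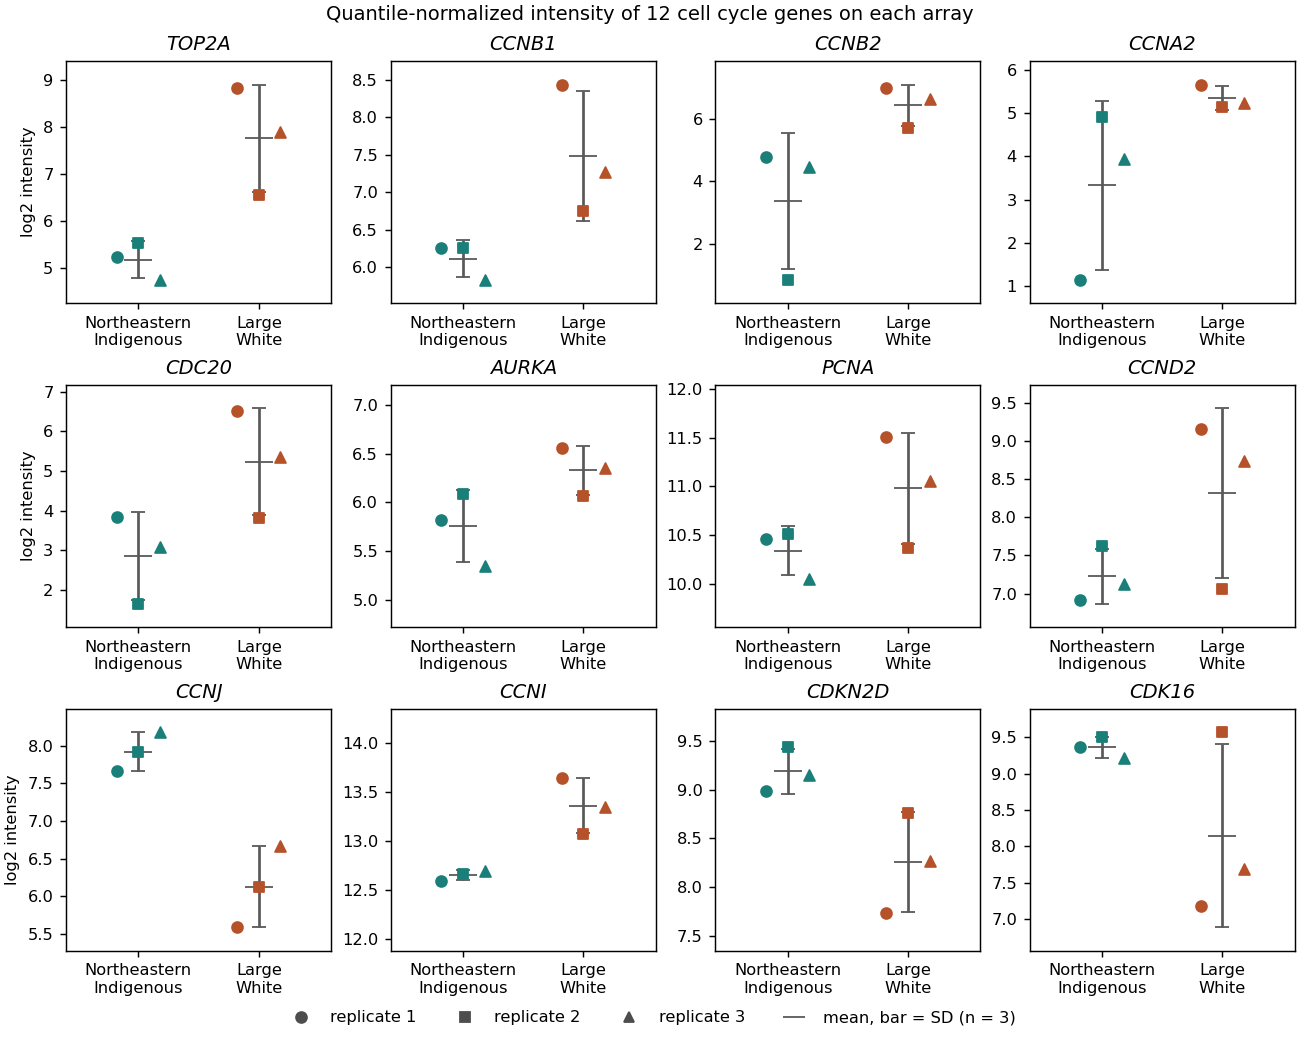
Each panel is 1 gene, with the log2 intensity of every array on the vertical axis, Northeastern Indigenous boars on the left and Large White boars on the right, symbols marking the replicate, and horizontal and vertical bars the mean and SD (n = 3). TOP2A, CCNB1, CCNB2 and CCNA2 do not overlap between breeds, PCNA and CCND2 overlap through Large White replicate 2, and CCNJ is higher on all 3 Northeastern Indigenous arrays.

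Replication genes showed no common direction. PCNA, the sliding clamp of DNA polymerase, averaged 10.34 ± 0.25 in Northeastern Indigenous and 10.98 ± 0.57 in Large White boars (SD, n = 3 each). Large White replicate 2, at 10.37, lay inside the Northeastern Indigenous range of 10.05 to 10.51, and replicates 1 and 3 lay above it at 11.51 and 11.05. MCM3, a subunit of the helicase that opens origins, read 5.60, 5.68 and 5.57 on the Northeastern Indigenous arrays and 6.27, 6.20 and 6.97 on the Large White arrays. Its breeds did not overlap, with a difference of -0.86 ± 0.36 (SE) and a limma adjusted p of 0.263, and -0.58 against Large White replicate 2 alone. Like TOP2A, it passed the filter through the Large White arrays. Its partners MCM2 and MCM5 differed by -0.28 ± 0.33 and 0.10 ± 0.45, both with overlap. MCM4 read 5.69, 4.34 and 5.34 on the Northeastern Indigenous arrays and 4.41, 3.82 and 3.48 on the Large White arrays, a difference of 1.22 in a gene under the array median throughout. A dimmer MCM4 probe set differed by -0.16, so its direction was not shared by its own probe sets.

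CDK2, on its brightest probe set, and CDK7 differed little. CDK1, CDK4 and CDK6 were not among the 41 genes, so nothing can be said of them here. CDK2, the kinase of S phase, averaged 8.17 ± 0.28 in Northeastern Indigenous and 8.29 ± 0.16 in Large White boars (SD, n = 3 each), with a 95% interval of the difference from -0.73 to 0.49. Dimmer CDK2 probe sets, below the filter, differed by -0.17 and -1.49, the latter without overlap between breeds. CDK7, the kinase that activates other CDKs, averaged 8.28 ± 0.43 in Northeastern Indigenous and 8.28 ± 0.55 in Large White boars (SD, n = 3 each), with a 95% interval from -0.88 to 0.88. Its cyclin partner CCNH read 6.76, 6.46 and 3.14 on the Northeastern Indigenous arrays and 5.85, 4.41 and 5.74 on the Large White arrays, below the filter. CDK5, best known from neurons, differed by 0.21 ± 0.27 (SE). The intervals given for CDK2 and CDK7 allow differences in either direction.

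CDK16 was the kinase with the widest gap, and its brightest probe set split the Large White arrays. This kinase, the partner of cyclin Y, read 9.37, 9.50 and 9.21 on the Northeastern Indigenous arrays and 7.18, 9.57 and 7.69 on the Large White arrays. Large White replicate 2 lay above all Northeastern Indigenous arrays while replicates 1 and 3 lay below them. The difference of 1.21 ± 0.59 (SE) became -0.21 against Large White replicate 2 alone. The 2 other CDK16 probe sets differed by 0.43 and 0.30, and the mean of all 3 by 0.65. They did not show the split. On Large White replicates 1, 2 and 3 they read 7.56, 7.19 and 7.19, and 7.01, 7.24 and 6.99. Against replicate 2 alone they differed by 0.55 and 0.14. CDK10, a kinase of cyclin M, differed by 0.56 ± 0.39 and came to -0.13 against replicate 2 alone.

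Among the remaining cyclins, CCNJ had the smallest unadjusted p of the 35 genes kept, 0.00138, in limma. CCNJ, cyclin J, a cyclin first described in fruit flies, read 7.67, 7.91 and 8.18 on the Northeastern Indigenous arrays and 5.60, 6.13 and 6.67 on the Large White arrays. The breeds did not overlap, the difference was 1.79 ± 0.35 (SE), or 3.46-fold, and the adjusted p was 0.224. Against Large White replicate 2 alone it was also 1.79. Leaving out any 1 array gave 1.52 to 2.06. Large White replicate 2 and the average Large White array thus lay equally far from the Northeastern Indigenous boars, unlike in TOP2A, CCNB1 or CDK16. It has 1 probe set, which was under the array median on the 3 Large White arrays in the deposited values.

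CCNI, cyclin I, which does not follow the cell cycle and is abundant in non-dividing tissue, was dimmer in Northeastern Indigenous boars. It read 12.59, 12.66 and 12.69 on the Northeastern Indigenous arrays and 13.64, 13.07 and 13.35 on the Large White arrays, with no overlap. Against Large White replicates 1 and 3 alone it differed by -0.99 and -0.70. The difference was -0.71 ± 0.20 (SE) with an adjusted p of 0.224, and -0.43 against Large White replicate 2 alone, but -0.42 in the deposited values without quantile normalization and -0.28 with arrays centred on their medians. A dim second probe set of CCNI had the same sign, at -2.65. CCND2, cyclin D2, which starts the cycle in response to growth signals, read 6.92, 7.62 and 7.13 on the Northeastern Indigenous arrays and 9.16, 7.06 and 8.74 on the Large White arrays. Its difference was -1.09 ± 0.55 (SE), but 0.17 against Large White replicate 2 alone, which lay within the Northeastern Indigenous range. CCNG1, a target of p53, and CCNG2, a cyclin of quiescent cells, differed by 0.19 ± 0.25 and -0.30 ± 0.30 (SE), both with overlap.

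CDK inhibitors had higher means in Northeastern Indigenous boars in 5 of 6 genes, with Large White replicate 1 the dimmest array for the same 5. This did not hold against Large White replicate 2 alone, where their median difference was -0.19 and CDKN3, CDKN2B and CDKN2C turned to -0.34, -0.79 and -0.04. CDKN2D, the inhibitor p19 of CDK4 and CDK6, read 8.99, 9.44 and 9.15 on the Northeastern Indigenous arrays and 7.74, 8.76 and 8.27 on the Large White arrays. It differed by 0.93 ± 0.33 (SE) with no overlap, with a limma adjusted p of 0.234, and by 0.43 against Large White replicate 2 alone. CDKN2C, the related p18, differed by 0.83 ± 0.52 (SE). CDKN1B, or p27, a brake of CDK2, differed by 0.52 ± 0.32 (SE), and by 0.36 against replicate 2 alone. The mean difference of CDKN3, a phosphatase that inactivates CDK2, was 0.35 ± 0.37 (SE), which turned to -0.26 with arrays centred on their hybridization controls. CDKN2B, p15, was under the array median on all arrays, with an SD of 1.53 in Northeastern Indigenous and 1.67 in Large White boars. CDKN1A, the p53-induced p21, was the exception at -0.54 ± 0.35 (SE). It read 8.41, 9.36 and 9.53 on the Northeastern Indigenous arrays and 9.58, 9.80 and 9.54 on the Large White arrays, so the breeds barely parted, and Northeastern Indigenous replicate 1 stood lowest.

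The kinases and cyclins of transcription and splicing held 1 gene without overlap. CDK11B, a kinase of the splicing machinery, read 8.76, 8.80 and 9.02 on the Northeastern Indigenous arrays and 7.39, 8.47 and 8.11 on the Large White arrays. Its difference was 0.87 ± 0.33 (SE), adjusted p 0.246 in limma, and 0.38 against Large White replicate 2 alone. CDK9, the elongation kinase of RNA polymerase II, differed by -0.43 ± 0.35, CDK13, a relative of it that binds cyclin K, by -0.32 ± 0.37, and CCNL2, a splicing cyclin, by 0.05 ± 0.24 (SE). For CDK13, Large White replicate 2 was the outlying array of its breed, at 9.23 against 8.10 and 8.37.

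Of the 8 genes named for binding a cyclin, a CDK or an inhibitor, CDK5RAP1 stood out. CDK5RAP1 encodes an enzyme that modifies mitochondrial transfer RNAs. It read 9.07, 9.03 and 9.21 on the Northeastern Indigenous arrays and 7.39, 8.41 and 8.32 on the Large White arrays, a difference of 1.06 ± 0.33 (SE) with no overlap and a limma adjusted p of 0.227. Against Large White replicate 2 alone it was 0.69. The other 7, which are CCNB1IP1, CCNDBP1, CDK2AP1, CDK2AP2, CDK5RAP3, CDKN2AIP and CDKN2AIPNL, differed by -0.23 to 0.39, all with overlap. CDK2AP1, a small CDK2-binding protein, was the steadiest, at 12.22, 12.13 and 12.23 on the Northeastern Indigenous arrays and 12.25, 12.16 and 12.06 on the Large White arrays.

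**Figure D3:**
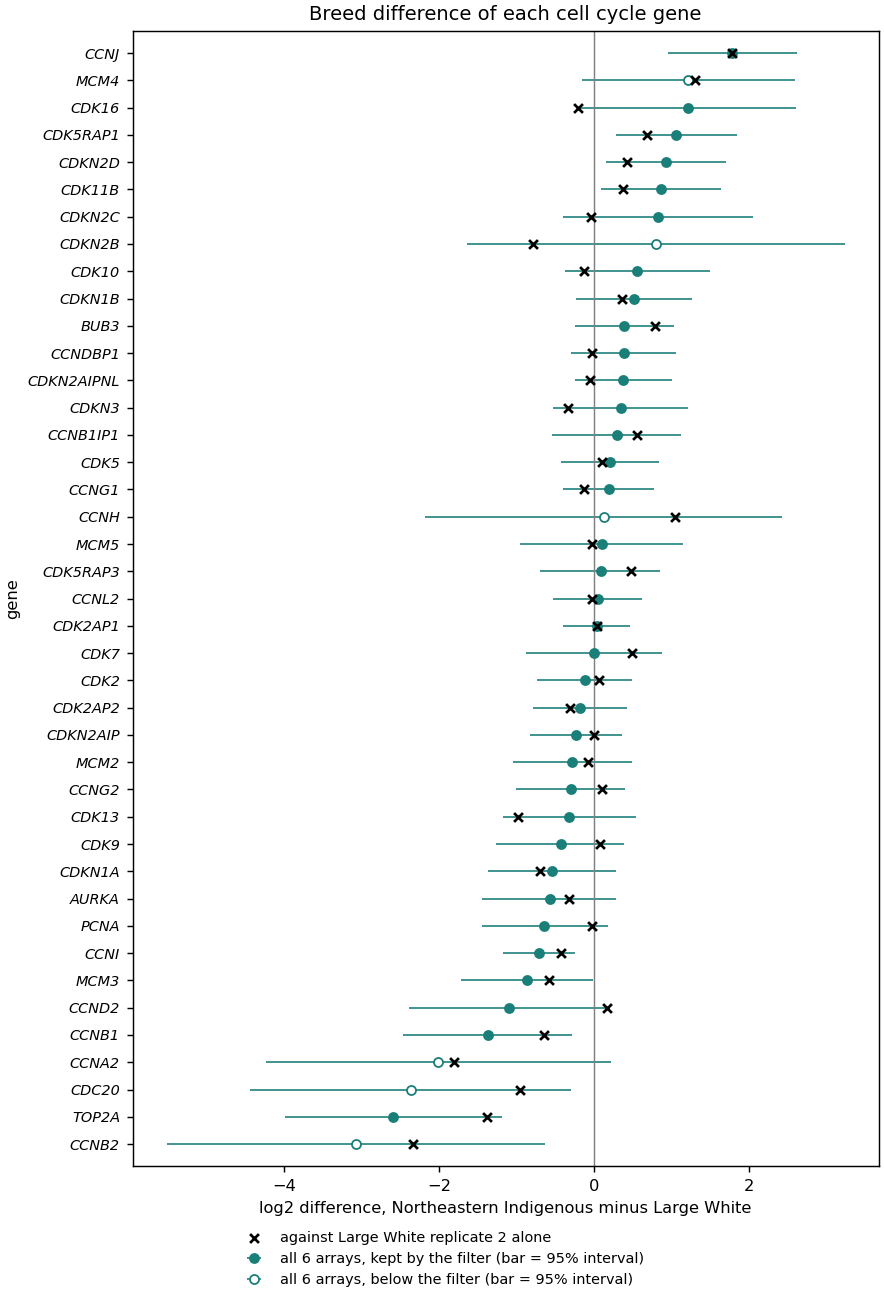
Each row is 1 of the 41 genes. Circles give the log2 difference Northeastern Indigenous minus Large White over 6 arrays, filled for genes kept by the filter and open for the 6 below it, with 95% limma intervals, and crosses give the Northeastern Indigenous mean minus Large White replicate 2 alone. Intervals of the 6 open circles come from a fit without the filter. CCNJ has its cross on its circle at 1.79, while CDK16, CCND2 and PCNA have crosses near 0.

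By their mean, 10 of the 41 genes lay under the mean of the array medians: CCNA2, CCNB2, AURKA, CDC20, TOP2A, MCM3, MCM4, MCM5, CCNH and CDKN2B. Of these, 5 (CCNA2, AURKA, CDC20, MCM4 and CDKN2B) were under the array median on all 6 arrays in the deposited values. Of all 41 genes, 11 were under it on some arrays and 25 on none. Dim means were found in 2 of 3 mitotic cyclins, 3 of 4 mitotic genes and 3 of 5 replication genes. Of the 11 genes with several probe sets, 5 had probe sets of both signs, which were CDK5RAP3, CDKN2AIP, MCM2, MCM4 and MCM5.

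The size of the breed difference changed with the Large White array used. Replicate 2 lay within the Northeastern Indigenous range in 21 of the 41 genes, above it in 11 and below it in 9. The median absolute difference of the Northeastern Indigenous mean was 0.80 from Large White replicate 1, 0.36 from replicate 2 and 0.58 from replicate 3, against 0.85, 0.35 and 0.61 over all named genes. Without replicate 2, limma called 10 of the 35 genes, 28.6%, against 34.0% of named genes and 30.7% of probe sets kept. The 10 were TOP2A, CCNB1, CCND2, CCNI and PCNA, lower in Northeastern Indigenous boars, and CCNJ, CDK16, CDK11B, CDKN2D and CDK5RAP1, higher. TOP2A, kept through its Large White values, was then at -3.20 ± 0.42 (SE, adjusted p = 0.00649) and CDK16 at 1.92 ± 0.26 (SE, adjusted p = 0.00649). With replicate 2 gone the breed rests on the arrays that stood apart, so breed and whatever set those arrays apart cannot be told apart in it.

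Markers of other cell types moved with the mitotic genes. Of 15 adipocyte markers 11 were on the array, with summed linear intensities of 9615 to 14846 on the Northeastern Indigenous arrays, against 66795, 11298 and 45817 on Large White replicates 1, 2 and 3. The 17 of 22 leukocyte markers summed to 3220 to 6597 on the Northeastern Indigenous arrays, against 32239, 9641 and 28340 on Large White replicates 1, 2 and 3. The 13 of 16 fibroblast and matrix markers summed to 32369 to 48714, against 161796, 52117 and 141093 on the same Large White arrays. All 3 lists were brightest on the arrays where TOP2A was brightest, and their part in the mitotic genes was not tested. On Large White replicate 2 the adipocyte sum lay within the Northeastern Indigenous range, while the leukocyte and matrix sums lay above it, as did TOP2A and the mitotic cyclins. These 2 sums rest on part of their lists. Gene by gene, Large White replicate 2 lay above that range in 8 of the 17 leukocyte genes, within it in 9 and below it in 0. Among the 13 matrix genes it lay above in 6, within in 6 and below in 1. No marker was at 0, and CEBPA and RETN in the adipocyte list and CD4 and CD79B in the leukocyte list were under the array median on all arrays. The sarcomere sum was 461082 to 510420 on the Northeastern Indigenous arrays, against 81181, 457023 and 388637 on the Large White arrays. In whole muscle, fewer cells of a type and less RNA per cell cannot be told apart.

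Muscle precursor and vessel marker sums did not share that order. Of 10 satellite cell markers 7 were on the array, and they summed to 10065 to 15638 on the Northeastern Indigenous arrays, against 532, 12744 and 4165 on Large White replicates 1, 2 and 3. The sum on Large White replicate 1 is low through DES, which is also in the sarcomere list, and MYF6, a late muscle regulator, which read 10.95, 10.77 and 11.23 on the Northeastern Indigenous arrays and 6.04, 10.92 and 9.39 on the Large White arrays. In all, 4 of the 7 were dimmest on that array: DES, MYF6, MYF5 and MYOD1. MYOD1 read 8.31, 8.51 and 8.44 on the Northeastern Indigenous arrays and 4.62, 9.76 and 7.31 on the Large White arrays. MYF5, an early muscle regulator, read 6.49, 6.17 and 6.03 on the Northeastern Indigenous arrays and 3.07, 6.84 and 5.81 on the Large White arrays. PAX3, NCAM1 and CHRNA1 had lower means in Northeastern Indigenous boars, at -0.55, -0.10 and -0.64. The 8 of 9 endothelial markers summed to 2146 to 3078 on the Northeastern Indigenous arrays, against 2750, 2473 and 2602 on the Large White arrays, with all Large White sums inside the Northeastern Indigenous range. Gene by gene, 7 of the 8 had a higher mean in Northeastern Indigenous boars. PECAM1, the brightest, had a lower one, at -0.46. Their median deviation from the Northeastern Indigenous mean was -0.69, 0.08 and -0.20 on Large White replicates 1, 2 and 3.

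**Figure D4:**
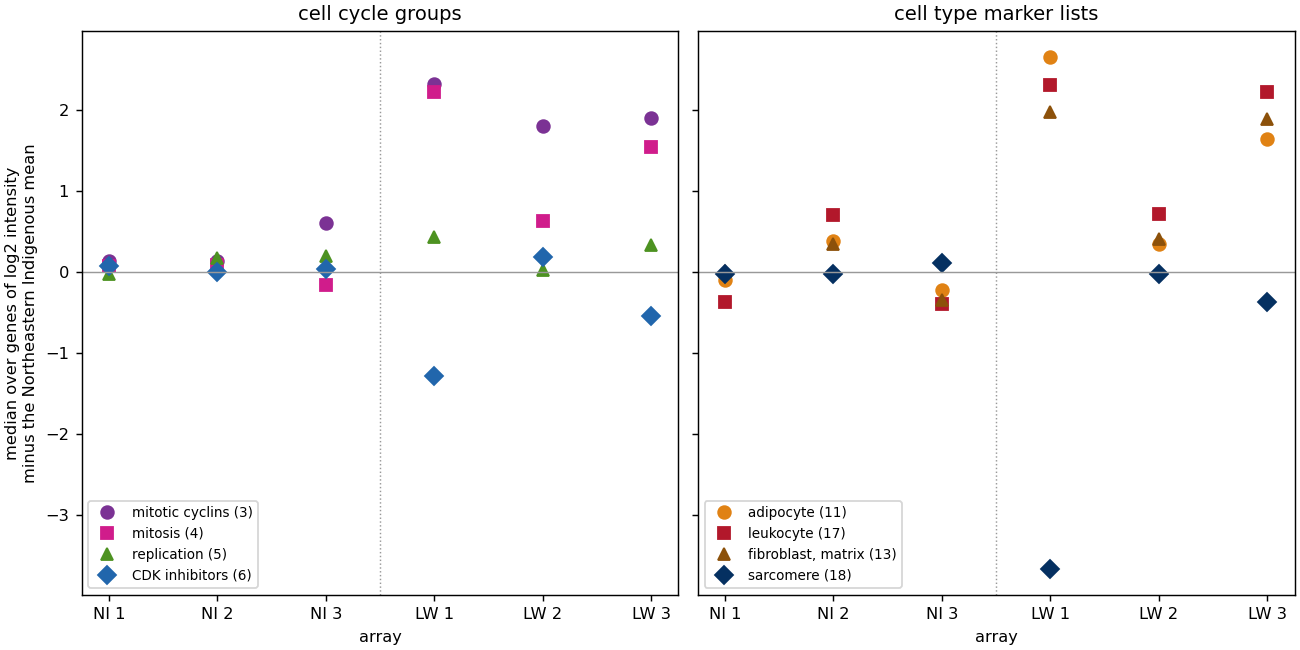
The vertical axis is the median over the genes of a group of the log2 intensity minus the Northeastern Indigenous mean, for each array on the horizontal axis (NI, Northeastern Indigenous; LW, Large White; number of genes in brackets). Mitotic cyclins lie at 2.33, 1.81 and 1.90 on Large White replicates 1, 2 and 3, the adipocyte list at 2.66, 0.35 and 1.64, and the sarcomere list at -3.67, -0.02 and -0.37. The mitotic cyclin medians on Large White replicates 2 and 3 are the values of CCNA2, a dim gene below the filter. For CCNB1, the only mitotic cyclin kept, the Northeastern Indigenous mean minus Large White replicate 2 was -0.64.

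Cell cycle genes outside the symbol rule were read from 3 lists. Of 66 listed genes of mitosis and its checkpoints 32 were on the array, 24 with a lower and 8 with a higher mean in Northeastern Indigenous boars. Of the 23 kept, 0 were called and 6 were lower at an unadjusted limma p under 0.05, with 0 higher. Among named genes kept, 11.4% were lower and 9.42% higher at that p. NUF2, among the 6, averaged 5.2 in Northeastern Indigenous and 6.93 in Large White boars. Its Northeastern Indigenous mean was under the filter value, so NUF2, like TOP2A, passed the filter through the Large White arrays. The filter thus helped to select NUF2 and with it the count of 6. NUSAP1, a spindle protein, read 7.52, 7.18 and 7.0 on the Northeastern Indigenous arrays and 10.34, 8.02 and 9.27 on the Large White arrays. RACGAP1, a cytokinesis factor, differed by -1.60 ± 0.46 (SE), UBE2C, the ubiquitin carrier of the anaphase-promoting complex, by -1.54 ± 0.45, and the checkpoint kinase CHEK1, below the filter, by -2.32. Against Large White replicate 2 alone, these differences were -0.79 for NUSAP1, -0.64 for RACGAP1, -1.15 for UBE2C and -1.38 for CHEK1.

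Replication and nucleotide genes were again mixed. Of 47 listed 30 were on the array, 13 higher and 17 lower, and of the 22 kept 0 passed an unadjusted p under 0.05 in limma. The exceptions were dim: RRM2, a ribonucleotide reductase subunit, read 2.28, 3.0 and 2.79 on the Northeastern Indigenous arrays and 6.82, 4.16 and 6.39 on the Large White arrays, and TYMS, thymidylate synthase, read 2.14, 4.06 and 4.30 on the Northeastern Indigenous arrays and 6.94, 5.64 and 6.52 on the Large White arrays. Both lay below the filter. DBF4, the activator of the CDC7 kinase, differed by -0.68 ± 0.32 (SE), and PRIM2, a primase subunit, by -1.05 ± 0.50. Against Large White replicate 2 alone they differed by -0.28 and -0.35.

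Of 32 other regulators 16 were on the array, 5 with a higher and 11 with a lower mean. Among the 13 kept, 2 were higher and 5 lower at an unadjusted limma p under 0.05, where 9.42% of named genes kept were higher and 11.4% lower, and 0 were called. WEE1, the kinase that restrains CDK1, read 7.06, 6.47 and 6.0 on the Northeastern Indigenous arrays and 8.34, 7.92 and 8.70 on the Large White arrays. It differed by -1.81 ± 0.37 (SE) with no overlap, and by -1.41 against Large White replicate 2 alone. CDC25B, the phosphatase that opposes WEE1, also had no overlap, at -1.14 ± 0.38, and -1.20 against replicate 2. CKS2, a CDK-binding subunit, differed by -1.33 ± 0.47 and by -0.44 against replicate 2, and the transcription factor E2F3 by 0.90 ± 0.34 and by 0.34 against replicate 2.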

How the data were processed

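Total RNA of each muscle was amplified to biotin-labelled cRNA and hybridized to 1 array, per the labels' protocols. The values the authors deposited are linear intensities, 1 for each probe set on each array. The software behind these values is not given in the sources used here. Of 24123 probe sets, 124 controls were left out of the tests. Names came from the platform annotation, and the 41 gene IDs matched the RefSeq table of Sscrofa11.1 with 0 symbols changed. No genome build is given, so no coordinates are printed.

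Intensities were taken as log2. The array medians spanned 0.35, over a limit of 0.2, which called for quantile normalization. The filter removed probe sets whose mean log2 value was under 5.85, the 40th percentile, and left 14399. Breeds were compared with limma 3.58.1 in R 4.3.3 (lmFit, eBayes with trend, two-sided, 4 residual degrees of freedom), with p-values adjusted by Benjamini-Hochberg over all probe sets kept. For genes below the filter no p-value is printed, and the intervals drawn for them come from a fit without the filter. That fit also gave the p by which RRM2, TYMS and CHEK1 were chosen for mention. With 3 arrays per breed, the number of arrays limits precision. The fit was run on simulated data with independent noise and the same spread in both breeds. Those data lacked the shared shift of the Large White arrays that stood apart, so the run cannot speak to it.

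The members, roles and lists were chosen with earlier results of these data known. Values on all arrays are given for genes at an unadjusted p under 0.05 and for fixed central genes, and up to 4 genes of smallest p per outside list are named. CDK16, CDK2AP1, DES, ADIPOQ, MYF5, MYF6 and MYOD1 were given in full after their values were seen. The labels do not say that replicate numbers pair animals. Deviations from the breed means correlated at -0.02, -0.16 and -0.11 for same-numbered arrays, and at -0.09 to 0.13 for differently numbered ones. With so few arrays per breed, these values cannot settle whether animals were paired. Alternatives were other scalings, filters, an offset of 32, variance priors, the mean of all probe sets, a replicate block, a threshold of 0.1 and left-out arrays. Centring on hybridization controls was added after seeing the data.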

Additional observations from a re-analysis of the deposited data

How the results depend on the processing

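Of the 35 genes kept, 0 were called in every setting except without Large White replicate 2, so that leaving out 1 array gave 0 to 10 calls. Over all probe sets the calls were 0 except for 1 with arrays centred on their medians and 1 at an adjusted p under 0.1, and leaving out 1 array gave 0 to 4421, with 1 without Large White replicate 1. Averaging a gene's probe sets gives no count of probe sets. No call was changed by the replicate block, which gave 0 and 0. The median difference of the 35 genes, 0.05, turned to -0.10 without quantile normalization, to -0.03 without Large White replicates 1 and 3 together and to -0.54 with arrays centred on their hybridization controls, and leaving out 1 array gave -0.01 to 0.09. The hybridization controls also moved the median of all named genes, to -0.42, and the 35 genes stood -0.12 from it there, as they did without quantile normalization.

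Of the 35 genes kept, 15 held their direction in every setting. CDK7, at 0.00, had none to hold and took both signs, from -0.24 to 0.30 when 1 array was left out. The 6 below the filter were not refitted in most settings. With the hybridization controls the difference turned to -0.02 for BUB3, -0.17 for CCNB1IP1, -0.06 for CCNDBP1, -0.56 for CCNL2, -0.05 for CDK10, -0.28 for CDK2AP1, -0.38 for CDK5, -0.54 for CDK5RAP3, -0.03 for CDKN2AIPNL, -0.26 for CDKN3 and -0.44 for MCM5. Without Large White replicates 1 and 3 together it turned to 0.17 for CCND2, -0.03 for CCNDBP1 and CCNL2, -0.13 for CCNG1 and CDK10, 0.11 for CCNG2, -0.21 for CDK16, 0.06 for CDK2, 0.08 for CDK9, -0.05 for CDKN2AIPNL, -0.04 for CDKN2C, -0.34 for CDKN3 and -0.02 for MCM5. Without quantile normalization it turned to -0.12 for CCNL2 and -0.10 for CDK5RAP3, and with the mean of all probe sets to -0.10 for CDK5RAP3. Leaving out 1 array gave -0.09 to 0.35 for CCNG1, -0.06 to 0.17 for CCNL2, -0.55 to 0.01 for CDK13, -0.27 to 0.01 for CDK2, -0.01 to 0.08 for CDK2AP1, -0.11 to 0.36 for CDK5RAP3 and -0.23 to 0.41 for MCM5. The causes were not tested. Signals under the array medians limit what can be said of the dim division genes.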

Other observations

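Control probe sets of bacterial and phage transcripts, which are added in fixed amounts during the assay and belong to no pig gene, differed between arrays in the deposited values. The mean log2 intensity of 18 such probe sets was 12.66, 12.74 and 12.47 on Northeastern Indigenous replicates 1, 2 and 3, against 11.90, 12.75 and 11.90 on Large White replicates 1, 2 and 3. The low arrays were the Large White arrays with bright adipocyte markers. Scaled to these controls, 27 of the 35 cell cycle genes kept had a lower mean in Northeastern Indigenous boars, against 15 after quantile normalization. That scaling moved the median of all named genes to -0.42, and 16 of the 35 lay above and 19 below the median of named genes under both scalings.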
